A study of Mus musculus with 11 samples.

Results

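The mitochondrial genome carries 37 annotated genes in the deposited table, and all of them were taken as members because their mapped symbol begins with mt- in lower case. They comprise 13 mRNAs, 2 rRNAs and 22 tRNAs out of 77179 genes. In RNA recovered by pull-down of tagged ribosomes of excitatory neurons, the mRNAs and rRNAs stood far below their level in whole tissue at P7. Both kinds were higher in the pull-down at P14. Between P14 and P21 the rRNAs and a few mRNAs were higher again, while most mRNAs were not.

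The 13 mRNAs encode core subunits of the respiratory chain. The mt-Nd genes encode complex I (NADH dehydrogenase), mt-Cytb encodes cytochrome b of complex III, mt-Co1 to mt-Co3 encode cytochrome c oxidase (complex IV), and mt-Atp6 and mt-Atp8 encode parts of ATP synthase (complex V). They are cut from long transcripts of both strands, often at the tRNAs that lie between them, and they are translated inside the organelle by mitochondrial ribosomes built on mt-Rnr1 (12S) and mt-Rnr2 (16S). Those ribosomes do not contain Rpl10a, which is a protein of the cytosolic large subunit. Whether the mitochondrial RNAs in the pull-down were bound to tagged ribosomes was not tested.

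The study profiled NEX-RiboTag mice, in which Cre expressed from Neurod6 (NEX) turns on an eGFP-Rpl10a fusion in forebrain excitatory neurons. Cortex and hippocampus were processed together. Polysomal RNA was pulled down with anti-GFP beads (TRAP, here IP) at postnatal days 7, 14 and 21, with 3 libraries per age, all NEX-Cre;Rpl10aeGFP/eGFP. The 2 P7 input libraries hold whole-tissue RNA, replicate 1 from NEX-Cre;Rpl10aeGFP/eGFP and replicate 2 from Rpl10aeGFP/eGFP without Cre, so every animal carries the reporter alleles and the input mixes both Cre states. All inputs analysed here are from P7. All IP libraries are from Cre-positive tissue, so RNA recovered without the tag was not measured here. Polyadenylated RNA was sequenced from fragments of about 250 to 300 bp. The labels do not say how many animals each library holds, so p-values measure the spread between libraries.

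Values are in TPM, a share of each library that is corrected for transcript length. Between 15154 and 17793 genes reached 1 TPM per library, and libraries of a group correlated at 0.988 to 0.994 on the log2 scale. Rpl10a had 2149 to 3814 TPM in the 9 IP libraries, against 996.1 TPM in the input with Cre and 487 TPM in that without. Neurod6, the gene that drives Cre, had 167.8, 145.5 and 143.9 TPM in P7 IP, against 89.12 and 135.2 TPM in input. P21 replicate 1 held the lowest level of its group for 15 of the 15 rRNAs and mRNAs, and P14 replicate 1 held the highest for 14 of 15. Input replicate 2 exceeded input replicate 1 for all 15, by a ratio of 1.02 for mt-Nd6 to 1.23 for mt-Rnr2.

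The 3 kinds of transcript took very different shares of the libraries. The 13 mRNAs together made up 0.677%, 0.879% and 0.857% of TPM in P7 IP, 2.35%, 2.03% and 2.06% in P14 IP, 1.96%, 2.54% and 2.67% in P21 IP, and 11.5% and 13.3% in P7 input. The 2 rRNAs made up 0.0444%, 0.0593% and 0.0547% in P7 IP, 0.368%, 0.280% and 0.268% in P14 IP, 0.431%, 0.550% and 0.656% in P21 IP, and 0.425% and 0.516% in input. Thus every IP library lay below both inputs for the mRNA share, whereas the rRNA share of P21 IP overlapped that of input. The 22 tRNAs reached at most 0.00432% of TPM in any library. In the plot of shares the mRNA points form a low P7 group, a middle P14 and P21 group and a high input group.

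**Figure D1:**
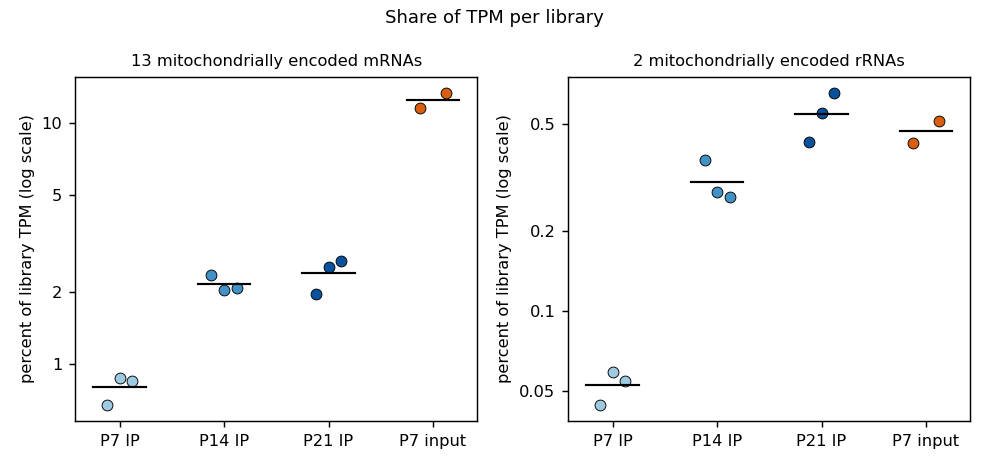
Percent of each library's TPM (log scale) taken by the 13 mRNAs (left) and the 2 rRNAs (right) in P7, P14 and P21 IP (n = 3 each) and P7 input (n = 2); points are libraries and lines are means. The mRNA share of all IP libraries is at most 2.67%, against 11.5% and 13.3% in input, and the rRNA share of P21 IP lies around that of input.

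Within the mRNAs, mt-Atp8 had the highest mean TPM in all 4 groups and mt-Nd5 the lowest. mt-Atp8 averaged 2250 ± 603 TPM in P7 IP, 5827 ± 208 TPM in P14 IP, 5575 ± 1130 TPM in P21 IP (SD, n = 3 each) and 43289 ± 6010 TPM in P7 input (SD, n = 2). It was the most abundant gene of all in input and ranked 29 in P7 IP. In P7 IP and P14 IP its range stood apart from that of the next gene, but in P21 IP it overlapped with that of mt-Co1. Most other neighbours in the order of levels overlapped as well, among them mt-Co3, mt-Atp6 and mt-Co1 in P7 IP and in input. Of the 13 mRNAs, 1 was among the 100 most abundant genes in P7 IP, 5 in P14 IP, 7 in P21 IP and 13 in input.

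Levels per length are less certain for the shortest transcripts. mt-Atp8, mt-Nd4l and mt-Nd3 are short mRNAs near the fragment size, where TPM depends on the effective length that was assumed. mt-Atp8 shares a transcript with mt-Atp6, and mt-Nd4l with mt-Nd4, and in both pairs the reading frames overlap. The ratio of mt-Atp8 to mt-Atp6 TPM was 1.72, 2.61 and 3.15 in P7 IP, 2.05, 2.4 and 2.16 in P14 IP, 2.23, 2.38 and 2.18 in P21 IP, and 3.57 and 3.59 in input. The ratio of mt-Nd4l to mt-Nd4 was 0.642, 0.811 and 0.955 in P7 IP, 0.697 to 0.864 in the later IP libraries, and 0.944 and 0.942 in input. P7 IP replicate 1 was the lowest library for both ratios, so the pairs that share a transcript varied more among P7 IP libraries than between the inputs.

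**Figure D2:**
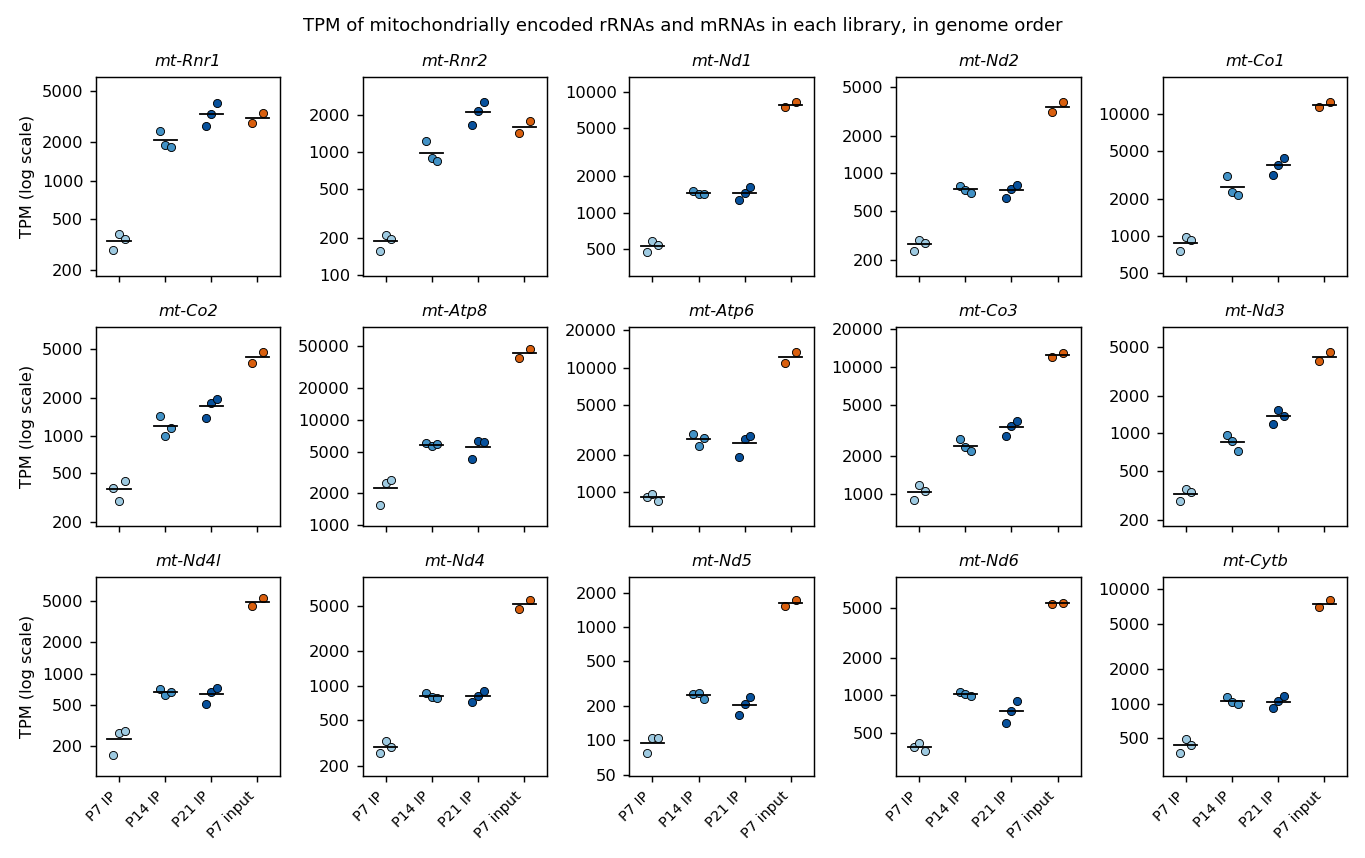
TPM (log scale) of the 2 rRNAs and 13 mRNAs in genome order, 1 panel per gene, for the libraries of P7, P14 and P21 IP and P7 input; lines are group means. Each mRNA has its lowest points in P7 IP and its highest in input, and the 2 rRNAs alone reach the input level in P21 IP.

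P7 IP was first set against P7 input, which compares the share of each RNA in the pull-down with its share in whole tissue. All 13 mRNAs were lower in P7 IP, by a log2 change of -4.39 ± 0.21 (SE) for mt-Nd4l to -3.54 ± 0.20 for mt-Co2, and both rRNAs were lower too. Of all 19008 genes tested, 51.1% were called lower at adjusted p below 0.05 (limma on log2(TPM + 1), Benjamini-Hochberg over all genes). The count of members called is therefore a frequent result in this contrast, and their size is what sets them off. The median over the mRNAs was -3.81, against -0.33 over all genes tested, of which 90% lay between -1.73 and 0.92.

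The complexes differed little in size of change. The 7 complex I mRNAs ranged from -4.39 to -3.67, and mt-Nd1, which encodes a membrane subunit of complex I, had 480, 585 and 544 TPM in P7 IP against 7419 and 8234 TPM in input (log2 change -3.87 ± 0.11, limma adjusted p = 9.38e-09). mt-Cytb had 373, 495 and 441 TPM in P7 IP against 7039 and 8023 TPM in input. Neither gene's groups came near each other. The 3 complex IV mRNAs ranged from -3.73 to -3.54, with mt-Co1, the catalytic subunit, at 759, 981 and 935 TPM in P7 IP against 11233 and 12355 TPM in input. mt-Atp6 changed by -3.73 ± 0.16 and mt-Atp8 by -4.30 ± 0.23. As a share of the input mean, the P7 IP mean was 4.86% for mt-Nd4l, 5.2% for mt-Atp8 and 8.64% for mt-Co2, with the other mRNAs between. All 13 mRNAs and both rRNAs had groups that did not overlap, as did 56.3% of all genes tested in the same direction.

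The rRNAs fell less than the mRNAs. mt-Rnr1 had 287, 382 and 350 TPM in P7 IP against 2807 and 3386 TPM in input (log2 change -3.19 ± 0.19, limma adjusted p = 2.08e-07). mt-Rnr2 had 157, 211 and 197 TPM in P7 IP against 1438 and 1773 TPM in input (-3.09 ± 0.21, adjusted p = 4.55e-07). The P7 IP mean was a larger part of the input mean for both rRNAs, 11.0% and 11.7%, than for any mRNA. To test that difference, the fit was repeated after each library was divided by its summed TPM of the 13 mRNAs. Relative to that sum mt-Rnr1 was higher in P7 IP by 0.76 ± 0.14 (adjusted p = 1.46e-04) and mt-Rnr2 by 0.86 ± 0.14 (adjusted p = 6.97e-05). In that scaling 92.1% of all genes were called higher and 0.205% lower, so the rRNAs share this direction with most genes. The rRNA sum was 0.0657, 0.0675 and 0.0639 of the mRNA sum in P7 IP, against 0.0371 and 0.0387 in input, and the groups did not overlap.

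Among the mRNAs, relative to their own sum, mt-Co3 was higher in P7 IP (0.37 ± 0.14, limma adjusted p = 0.0191) and mt-Nd4l was lower (-0.44 ± 0.15, adjusted p = 0.012). The other 11 mRNAs did not pass. Both calls were lost without input replicate 2, at adjusted p = 0.107 and 0.0629, and with only the P7 groups in the fit, and that of mt-Co3 also without P7 IP replicate 2 (adjusted p = 0.0558). mt-Atp8 made up 27.6% ± 4.2 of the mRNA sum in P7 IP (SD, n = 3) and 34.9% ± 1.1 in input (SD, n = 2), which did not pass in the relative fit (-0.35 ± 0.16, adjusted p = 0.0558).

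Scaling moved the centre of this comparison. With median-of-ratios scaling the median of all genes was 0.06 and the mRNA median was -3.32, so the mRNAs lay 3.38 below the median of all genes, against 3.48 in the TPM fit. Over all genes 6829 were then called higher and 5555 lower (6256 and 6025 after quantile normalisation), against 3541 and 9718 in the TPM fit. All mRNAs and rRNAs remained lower under each scaling tried.

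**Figure D3:**
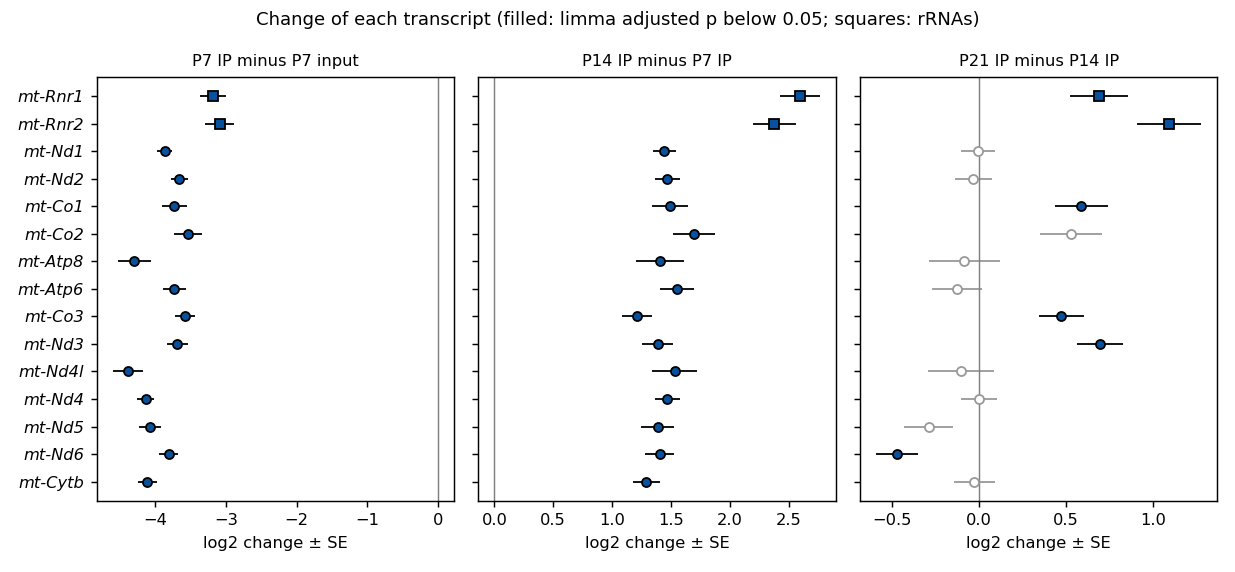
Log2 change with its standard error for each rRNA (squares) and mRNA (circles) in P7 IP minus P7 input, P14 IP minus P7 IP and P21 IP minus P14 IP; filled symbols passed the limma test at adjusted p below 0.05. All 15 are called in the first and second panels, and in the third 5 are higher, mt-Nd6 is lower and 9 did not pass.

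In P14 IP against P7 IP all 13 mRNAs rose, by 1.21 ± 0.13 (mt-Co3) to 1.70 ± 0.18 (mt-Co2) on the log2 scale with a median of 1.45, and the rRNAs rose more. Of all genes 26.7% were called higher and 22.8% lower, and the median over all genes was 0.03. mt-Nd1 had 1510, 1429 and 1434 TPM in P14 IP against 480, 585 and 544 TPM in P7 IP (1.45 ± 0.10, limma adjusted p = 1.23e-06). mt-Nd5 had 254, 263 and 230 TPM in P14 IP against 77.4, 104 and 104 TPM in P7 IP. The fold of the means was 2.72 for mt-Nd1 and lay between 2.31 (mt-Co3) and 3.25 (mt-Co2) for the 13 mRNAs. The groups did not overlap for any of the 15 mRNAs and rRNAs, against 31.1% of all genes in that direction.

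The remaining members followed the same pattern. mt-Cytb averaged 1063 ± 82.7 TPM in P14 IP and 436 ± 61.3 TPM in P7 IP, and mt-Nd4 averaged 809 ± 43.9 TPM in P14 IP and 293 ± 35.6 TPM in P7 IP (SD, n = 3 each). mt-Atp6, a proton-channel subunit of ATP synthase, averaged 2663 ± 306 TPM in P14 IP and 906 ± 57.6 TPM in P7 IP.

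mt-Rnr1 rose to 2456, 1904 and 1832 TPM in P14 IP, against 287, 382 and 350 TPM in P7 IP (2.60 ± 0.17, limma adjusted p = 9.7e-07). mt-Rnr2 rose to 1220, 892 and 850 TPM in P14 IP, against 157, 211 and 197 TPM in P7 IP (2.38 ± 0.18, adjusted p = 2.8e-06). P14 replicate 1 was the highest library for both. Relative to the mRNA sum the rRNAs still rose, mt-Rnr1 by 1.17 ± 0.12 (adjusted p = 2.28e-06) and mt-Rnr2 by 0.96 ± 0.13 (adjusted p = 1.47e-05), whereas 84.0% of all genes were called lower and 1.96% higher in that scaling. Relative to their own sum 0 of the 13 mRNAs passed with limma, and 0 had an unadjusted p below 0.05. Their changes in that fit ran from -0.21 ± 0.12 (mt-Co3) to 0.27 ± 0.18 (mt-Co2), so no difference in composition between P14 and P7 was detectable at this spread.

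In P21 IP against P14 IP mt-Co1, mt-Co3 and mt-Nd3 rose, mt-Nd6 fell and the other 9 mRNAs did not pass. Over all genes 8.53% were called higher and 19.7% lower, which is 1621 and 3749 genes. With median-of-ratios scaling these were 2691 and 2258, and after quantile normalisation 2290 and 2662. mt-Nd3, a small complex I subunit, had 1201, 1556 and 1379 TPM in P21 IP against 967, 868 and 720 TPM in P14 IP (0.70 ± 0.13, limma adjusted p = 0.00324). mt-Co1 had 3180, 3805 and 4349 TPM in P21 IP against 3083, 2303 and 2187 TPM in P14 IP (0.59 ± 0.15, adjusted p = 0.0163). The lowest P21 library lay just above P14 replicate 1. mt-Co3 had 2847, 3467 and 3755 TPM in P21 IP against 2729, 2343 and 2171 TPM in P14 IP (0.47 ± 0.13, adjusted p = 0.0204). These 3 mRNAs, both rRNAs and the tRNA gene mt-Ts1 were the ones with higher groups that did not overlap, against 13.7% of all genes. mt-Co3 and mt-Nd3 are near neighbours on the genome, with mt-Tg between them.

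mt-Nd6, the complex I subunit encoded on the opposite strand, had 599, 744 and 906 TPM in P21 IP against 1063, 1019 and 993 TPM in P14 IP (-0.47 ± 0.12, limma adjusted p = 0.0149). The groups did not overlap, as for 30.1% of all genes in that direction, although P21 IP was the more scattered. The call was lost with no filter on low genes (adjusted p = 0.0537) and with only these groups in the fit (adjusted p = 0.0549). mt-Nd6 lies next to mt-Nd5 on the other strand, and the sources used here do not say whether strand was used. Reads within mt-Nd6 therefore cannot be told apart from those of long transcripts of the other strand. mt-Nd5 had 168, 209 and 239 TPM in P21 IP against 254, 263 and 230 TPM in P14 IP, and did not pass (-0.29 ± 0.14, adjusted p = 0.154). The ratio of mt-Nd6 to mt-Nd5 was 3.55, 3.56 and 3.79 in P21 IP against 4.18, 3.87 and 4.32 in P14 IP.

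mt-Co2, a copper-binding subunit of complex IV, had 1386, 1826 and 1978 TPM in P21 IP against 1443, 1002 and 1156 TPM in P14 IP. It just missed the threshold (0.53 ± 0.18, limma adjusted p = 0.0503). mt-Co2 passed in 6 of the 21 alternatives. Among them were median-of-ratios scaling (adjusted p = 0.0229) and a filter at a 5 TPM mean (adjusted p = 0.0308). Leaving out P14 replicate 1 (adjusted p = 0.0257) or P21 replicate 1 (adjusted p = 0.025) also gave the call. mt-Nd1, mt-Nd2, mt-Nd4 and mt-Cytb differed by between -0.03 and 0.00, with standard errors of 0.10 to 0.12. mt-Cytb, for example, averaged 1047 ± 126 TPM in P21 IP and 1063 ± 82.7 TPM in P14 IP (SD, n = 3 each). mt-Atp8, mt-Atp6 and mt-Nd4l also had overlapping groups, at -0.08 ± 0.20, -0.12 ± 0.14 and -0.10 ± 0.19. The calls for mt-Co1 and mt-Co3 were lost without P14 replicate 2 (adjusted p = 0.0608 and 0.0634), P14 replicate 3 (adjusted p = 0.0646 and 0.0778) or P21 replicate 3 (adjusted p = 0.055 and 0.0671), and that for mt-Co3 also without P21 replicate 2 (adjusted p = 0.0662). mt-Nd3 passed in each of the 21 alternatives.

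The rRNAs rose again. mt-Rnr1 had 2666, 3345 and 4028 TPM in P21 IP against 2456, 1904 and 1832 TPM in P14 IP (0.69 ± 0.17, limma adjusted p = 0.0119). mt-Rnr2 had 1648, 2159 and 2529 TPM in P21 IP against 1220, 892 and 850 TPM in P14 IP (1.09 ± 0.18, adjusted p = 0.00175). mt-Rnr1 and mt-Rnr2 thereby reached means of 3346 ± 681 and 2112 ± 442 TPM in P21 IP (SD, n = 3), beside 3097 ± 409 and 1606 ± 237 TPM in P7 input (SD, n = 2), with overlapping ranges for both. The mRNAs had not: their P21 IP ranges lay below input in every case.

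The pair of rRNAs did not move in step. mt-Rnr1 over mt-Rnr2 was 1.83, 1.82 and 1.78 in P7 IP, 2.01, 2.13 and 2.16 in P14 IP, 1.62, 1.55 and 1.59 in P21 IP, and 1.95 and 1.91 in input. The 3 IP ages did not overlap in this ratio, which was highest at P14 and lowest at P21. No test was run on the ratio.

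In P21 IP against P7 IP all 13 mRNAs rose, by between 0.93 ± 0.12 for mt-Nd6 and 2.23 ± 0.18 for mt-Co2, with a median of 1.44. Both rRNAs rose by more, 3.29 ± 0.17 for mt-Rnr1 and 3.47 ± 0.18 for mt-Rnr2, which is 9.85-fold and 11.2-fold on the means. Of all genes 27.3% were called higher and 32.6% lower. The complex IV mRNAs rose by 1.68 to 2.23, mt-Nd3 by 2.08 ± 0.13, the other 6 complex I mRNAs by 0.93 to 1.47, mt-Cytb by 1.26 ± 0.12, and mt-Atp6 and mt-Atp8 by 1.43 and 1.33. All of these groups were apart, as were 29.3% of all genes in that direction. The moderated F test over the 3 ages was passed by all 13 mRNAs and both rRNAs, and by 62.6% of all genes.

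The composition of the mRNA pool therefore differed between P21 and P7. Relative to the mRNA sum, mt-Co2 (0.66 ± 0.18, limma adjusted p = 0.00327), mt-Nd3 (0.52 ± 0.13, adjusted p = 0.00236) and mt-Co1 (0.51 ± 0.13, adjusted p = 0.00207) were higher at P21. mt-Nd6 (-0.64 ± 0.14, adjusted p = 0.001), mt-Nd5 (-0.46 ± 0.12, adjusted p = 0.00285) and mt-Cytb (-0.30 ± 0.12, adjusted p = 0.0269) were lower, of which mt-Cytb lost its call without P7 IP replicate 2, P21 replicate 2 or P21 replicate 3 (adjusted p = 0.0829, 0.102 and 0.0551). It was also lost in the fit of P21 and P7 IP alone (adjusted p = 0.103) and when genes under a 5 TPM mean were dropped (adjusted p = 0.068). In that scaling 3.21% of all genes were called higher and 83.8% lower. mt-Co1 made up 15.8% ± 0.7 of the mRNA sum in P21 IP and 11.1% ± 0.2 in P7 IP (SD, n = 3 each). mt-Nd6 made up 3.12% ± 0.24 in P21 IP and 4.89% ± 0.79 in P7 IP. Between P21 and P14, mt-Co1, mt-Nd3 and mt-Rnr1 and mt-Rnr2 were higher and mt-Nd5 and mt-Nd6 lower in the same fit, beside 1.59% of all genes called higher and 8.84% lower. Those P21 minus P14 calls were lost for all 4 mRNAs and mt-Rnr1 without P14 replicate 2, without P14 replicate 3 or without P21 replicate 2, with adjusted p of 0.0573 to 0.213. mt-Co1, mt-Nd5 and mt-Rnr1 also lost theirs without P21 replicate 3 (adjusted p = 0.125, 0.0933 and 0.072). For mt-Co1 and mt-Nd5 they were also lost without P7 IP replicate 2 or 3 or input replicate 2 (mt-Nd5 also without input replicate 1). The P7 libraries are in neither group compared. They enter through the shared spread, the filter on low genes, the common scale and the adjustment over genes.

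**Figure D4:**
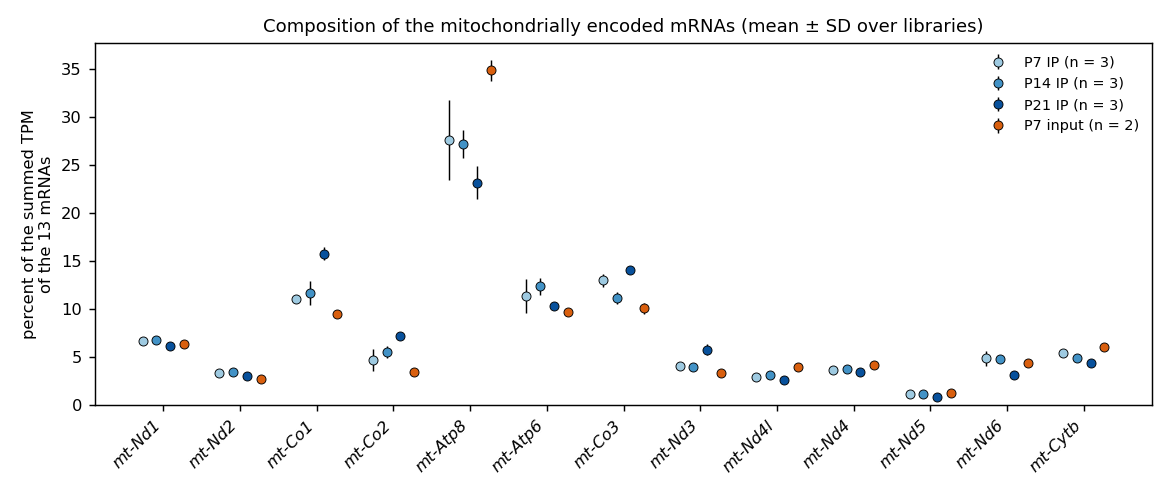
Each mRNA's TPM as a percent of the summed TPM of the 13 mRNAs, in genome order, as mean ± SD over the libraries of P7, P14 and P21 IP and P7 input. mt-Co1 and mt-Co2 have their highest share in P21 IP, mt-Nd6 has its lowest there, and mt-Atp8 takes 34.9% in input.

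The later step (P21 minus P14) was smaller than the earlier one (P14 minus P7) for all 13 mRNAs and both rRNAs in a test of the difference, as for 16.8% of all genes. The mRNA differences ran from -1.87 ± 0.21 for mt-Nd6 to -0.69 ± 0.23 for mt-Nd3 (limma adjusted p = 3.81e-04 and 0.0495). Both steps share the P14 libraries, so a high P14 value raises the first and lowers the second. Without P14 replicate 1 the difference was no longer called for mt-Rnr2, mt-Co1, mt-Co2, mt-Co3 and mt-Nd3, with adjusted p between 0.0724 and 0.2. The differences for mt-Co1, mt-Co3 and mt-Nd3 each lost their call in 8 or more of the 21 alternatives, among them every one that left out P7 IP replicate 1, P14 replicate 2 or P21 replicate 1 (adjusted p of 0.0531 to 0.14). That for mt-Co2 was also lost without P14 replicate 3 (adjusted p = 0.0522).

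The tRNA genes were mostly at the floor. tRNAs are shorter than the sequenced fragments and carry no long poly(A) tail, so their values here are a poor measure of mature tRNA. A value of 0 was listed in all libraries for 12 of the 22, no tRNA gene was above 0 in every library, and 36 of the 242 values were above 0. With no counts the depth behind a listed 0 cannot be given. Equal values recurred within a library, such as 1.62 TPM for mt-Tv, mt-Tm and mt-Te in P21 IP replicate 1. Values of about this size, which include those of mt-Ts1 above 0 in P7 IP, therefore lie near the floor. The 6 that could be tested were mt-Tv, mt-Tl1, mt-Tm, mt-Tn, mt-Ts1 and mt-Tp, which carry valine, leucine, methionine, asparagine, serine and proline. Outside mt-Ts1 and mt-Tp the highest value was 5.82 TPM.

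mt-Ts1, which lies at the end of mt-Co1 on the opposite strand, was the most abundant tRNA gene. It had 1.86, 1.83 and 0 TPM in P7 IP against 22.4 and 24.9 TPM in input (log2 change on the TPM + 1 scale -3.61 ± 0.40, limma adjusted p = 1.56e-05). It rose at P14, where it had 6.93, 4.21 and 7.71 TPM (1.82 ± 0.36 against P7 IP, adjusted p = 0.00157). At P21 it had 14.6, 17.4 and 14.0 TPM, 1.19 ± 0.36 above P14 IP (adjusted p = 0.0298), a call lost without P14 replicate 2 or without any 1 of the P21 replicates. This order of groups is that of mt-Co1, and without strand the reads of the 2 genes cannot be told apart. mt-Tp, on the opposite strand behind mt-Cytb and mt-Tt, had 0, 3.77 and 0 TPM in P7 IP against 4.26 and 11.5 TPM in input (-2.27 ± 0.69, adjusted p = 0.0132), a call lost without input replicate 2 (adjusted p = 0.123). It was not called between ages in the IP. Without P7 IP replicate 2, P14 and P21 were called higher than P7 (adjusted p = 0.00725 and 0.00559), and P21 was also called higher than P7 with a pseudocount of 0.1 TPM (adjusted p = 0.0434). mt-Tm had 1.62, 1.94 and 1.75 TPM in P21 IP against 0 TPM in all P7 IP libraries and was called higher (limma adjusted p = 0.00725). These values lie near the floor described above, and this call was not followed singly through the alternatives. mt-Tv was above 0 only in P21 replicates 1 and 2, at 1.62 and 5.82 TPM. It passed the filter on low genes through that group alone, so its call is not used.

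The nuclear genome encodes most subunits of the same complexes, and their mRNAs are translated by cytosolic ribosomes. Of 71 nuclear-encoded subunits, 46 were higher and 9 lower in P7 IP than in input, beside 18.6% and 51.1% of all genes, with a median of 0.34 against -3.81 for the 13 mitochondrially encoded mRNAs and -0.33 over all genes. Their summed TPM was 39070 to 42480 in P7 IP against 27040 to 28380 in input, while the 13 mitochondrial mRNAs summed to 6765 to 8787 TPM in P7 IP against 114500 to 133400 TPM in input. Cox8a of complex IV had 2516 ± 341 TPM in P7 IP (SD, n = 3) and 1107 ± 66 TPM in input (SD, n = 2), and was higher in P7 IP by 1.18 ± 0.11 (limma adjusted p = 3.49e-06). Uqcrq of complex III was higher by 1.34 ± 0.07. The lowest value on the list was that of the complex I subunit Ndufs1, at -0.56 ± 0.07 (adjusted p = 2.59e-05).

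With age more nuclear subunits rose than fell. Between P14 and P7, 44 of 71 rose and 1 fell, beside 26.7% and 22.8% of all genes, with a median of 0.22 against 1.45 for the mitochondrial mRNAs. Between P21 and P14, 28 rose and 2 fell, beside 8.53% and 19.7% of all genes, with a median of 0.15 against -0.03. Between P21 and P7, 55 rose and 1 fell, beside 27.3% and 32.6% of all genes, with a median of 0.35 against 1.44. By complex the P21 minus P7 median was 0.29 for 36 subunits of complex I, 0.30 for 9 of complex III, 0.53 for 11 of complex IV and 0.25 for 15 of complex V. The mitochondrially encoded medians were 1.44 for complex I and 2.08 for complex IV, so complex IV stood highest in both genomes. Cox8a had 6216 ± 62 TPM in P21 IP and 2516 ± 341 TPM in P7 IP (1.31 ± 0.09, limma adjusted p = 6.97e-07), and Cox4i1 rose by 1.01 ± 0.07. Ndufa5 of complex I rose by 1.05 ± 0.09 and Ndufc2 of the same complex fell by 0.18 ± 0.06. The difference between the 2 genomes was described by these medians and not tested as such.

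**Figure D5:**
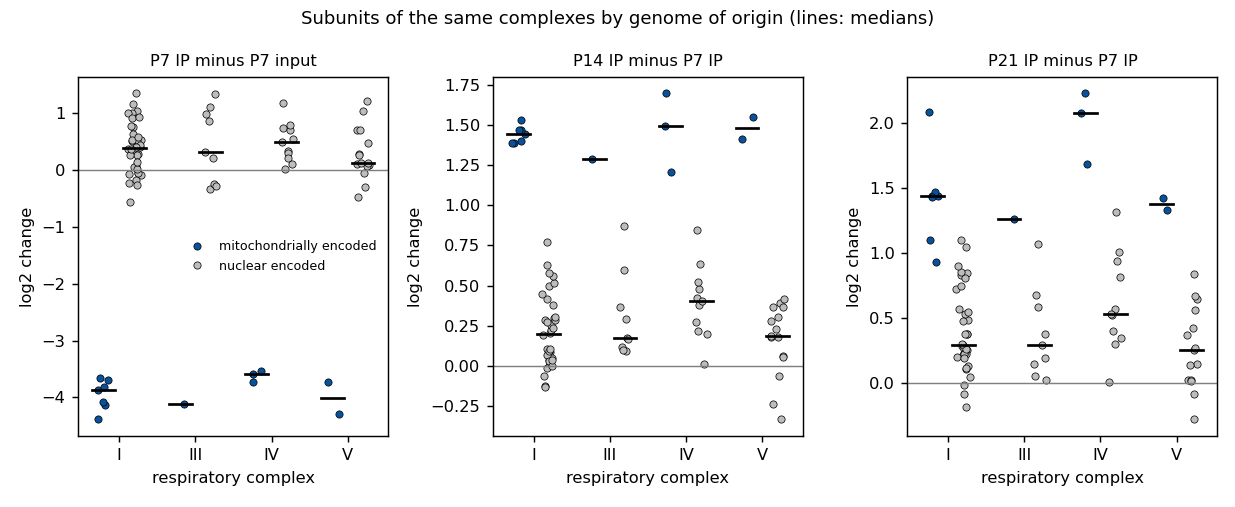
Log2 change of each mitochondrially encoded and each nuclear-encoded subunit of complexes I, III, IV and V in P7 IP minus P7 input, P14 IP minus P7 IP and P21 IP minus P7 IP; points are genes and lines are medians. In the first panel all mitochondrial points lie at or below -3.54 and most nuclear points lie above 0, and in the other panels the mitochondrial medians lie above the nuclear ones.

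Nuclear genes that act on mitochondrial DNA and RNA changed in both directions. The counts between P21 and P7 in the lists of maintenance, translation, biogenesis and import genes stand beside 27.3% of all genes higher and 32.6% lower, and those between P7 IP and input beside 18.6% and 51.1%. Of 11 genes of mtDNA transcription, 2 were higher and 6 lower in P7 IP than in input, and 1 rose and 2 fell between P21 and P7. The mitochondrial RNA polymerase Polrmt had 10.1 TPM in P21 IP and 7.83 TPM in P7 IP (0.32 ± 0.11, limma adjusted p = 0.0256), and the transcription factor Tfb2m fell by 0.51 ± 0.09 between the same ages. Of 18 replication genes, 3 rose and 8 fell between P21 and P7. Polg, the mtDNA polymerase, rose by 0.56 ± 0.11, and Top1mt, the mitochondrial topoisomerase, fell by 1.27 ± 0.10. Of 40 genes of mitochondrial RNA processing and stability, 15 rose and 9 fell between P21 and P7. Fastk had 213 TPM in P21 IP and 124 TPM in P7 IP (0.78 ± 0.06, adjusted p = 1.17e-06), and it is a mitochondrial RNA-binding protein needed for mt-Nd6 mRNA in mouse and human cells.

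Of 20 translation factors, 1 rose and 7 fell between P21 and P7, where the GTPase Noa1 fell by 0.64 ± 0.05, and of 20 genes of mitochondrial tRNA charging, 3 rose and 7 fell. Rars2, the mitochondrial arginyl-tRNA synthetase, fell by 1.06 ± 0.08. Of 13 regulators of mitochondrial biogenesis that were tested, 3 rose and 4 fell, led by Esrra, a nuclear receptor (1.04 ± 0.07, limma adjusted p = 2.99e-07), and Sirt3, a mitochondrial deacetylase (0.91 ± 0.05, adjusted p = 2.12e-07). Of 19 genes of the outer membrane and import machinery, 7 rose and 6 fell, with Tomm7 up by 0.89 ± 0.11 and Vdac3 down by 0.64 ± 0.04.

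The summed markers of astrocytes, of microglia and of endothelial and mural cells were also lowest in P7 IP and highest in input. In bulk libraries, fewer cells of a type and less RNA per cell cannot be told apart. The 22 astrocyte markers summed to 262 to 348 TPM in P7 IP, 569 to 662 TPM in P14 IP, 736 to 919 TPM in P21 IP and 3924 to 4345 TPM in P7 input, with none at 0 in all libraries of a group. All 22 were lower in P7 IP than in input, beside 51.1% of all genes (median -3.06), and 19 rose between P14 and P7, beside 26.7% of all genes (median 0.75). The 18 microglial markers summed to 34.1 to 42.0 TPM in P7 IP, 57.4 to 69.8 TPM in P14 IP, 63.2 to 79.9 TPM in P21 IP and 290 to 370 TPM in input. The 20 oligodendrocyte markers summed to 66.6 to 74.2, 344 to 456 and 557 to 804 TPM in P7, P14 and P21 IP, beside 273 to 354 TPM in input. All 18 microglial markers and 15 of 19 oligodendrocyte markers tested were lower in P7 IP than in input, beside the same 51.1%. Their part in the changes of the mitochondrial transcripts was not tested.

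The 20 endothelial and mural markers summed to 99.8 to 130 TPM in P7 IP, 147 to 161 TPM in P14 IP, 170 to 203 TPM in P21 IP and 492 to 534 TPM in input. Of these, 19 were lower in P7 IP than in input, beside 51.1% of all genes. Between P14 and P7, 4 rose and 1 fell, beside 26.7% and 22.8% of all genes. The 12 markers of oligodendrocyte precursors summed to 119 to 137, 72.3 to 82.4 and 54.1 to 68.1 TPM in P7, P14 and P21 IP, beside 377 to 404 TPM in input. Of 14 noncoding RNAs tested, 1 was higher and 10 were lower in P7 IP than in input, beside 18.6% and 51.1% of all genes. Their log2 changes ran from -7.19 to 1.47. Malat1, a nuclear RNA, changed by -4.05 ± 0.21 and Bc1, a cytoplasmic small RNA of neurons, by -7.19 ± 0.67 (limma adjusted p = 1e-07 and 4.86e-06). Between P14 and P7, 6 of the 14 rose and 1 fell, beside 26.7% and 22.8% of all genes. The 15 noncoding RNAs on the list summed to 953 to 1331 TPM in P21 IP, against 1353 to 1473 TPM in P14 IP, while Rmrp was at 0 in all P7 and P14 IP libraries. The 20 excitatory neuron markers had a median of -0.13 in P7 IP against input, with 6 higher and 8 lower. The 20 inhibitory neuron markers had a median of -2.53, with 1 higher and 19 lower. These counts stand beside 18.6% and 51.1% of all genes. The excitatory markers summed to 4372 to 4885 TPM in P7 IP, 7875 to 8697 in P14 IP and 8977 to 10090 in P21 IP. In input their sum was 4145 to 4176 TPM. The inhibitory markers summed to 938.5 to 1044, 1583 to 1758 and 2113 to 2450 TPM at these ages, and 1528 to 1734 in input. Between P14 and P7, 7 excitatory markers rose and 8 fell, against 5 and 5 inhibitory ones, beside 26.7% and 22.8% of all genes.

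To find genes with a like pattern, the group means of each non-member with a mean of at least 10 TPM were centred on the log2 scale over the 4 groups and compared with the average profile of the 13 mRNAs. Of 8522 candidates, the nearest was Gm28661, a predicted gene, with a root mean square difference of 0.111. It had means of 1000 TPM in P7 IP, 2545 TPM in P14 IP, 3344 TPM in P21 IP and 15490 TPM in input, and its sequence was not compared with that of the mitochondrial genome. Others among the 8 nearest were Gpr37l1 (0.188), C1qa (0.202), Hepacam (0.254), Slc1a3 (0.255), Malat1 (0.257) and Selenop (0.267). Among these, Slc1a3 stands on the astrocyte and C1qa on the microglial marker list above. The members' own distances from their average ran from 0.0386 for mt-Nd1 to 0.383 for mt-Co2, while mt-Rnr1 and mt-Rnr2 lay at 0.962 and 1.03.

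Near-identical copies of mitochondrial sequence lie in the nuclear genome, and the sources used here do not say how reads were divided between them. All values above are of polyadenylated RNA, and how well its capture retains rRNAs, mt-Nd6 and tRNAs, whose tails are short or lacking, was not tested.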

How the data were processed

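The authors deposited TPM values in 1 table of 77179 Ensembl genes and 11 libraries. The submitters' processing notes name the build mm39 and the tools DESeq2 1.46.0, Salmon 1.10.0 and fastp 1.0.1. Roles of these tools, annotation release and strand use are not stated. TPM keeps no depth, so the depth is unknown and precision comes from the spread between libraries. Symbols matched 50886 IDs, and all 11 columns were used.

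Log2(TPM + 1) was the response in limma 3.58.1 (R 4.3.3). Each of the 4 groups had 1 mean, which left 7 residual degrees of freedom, and variances were moderated with a trend. The 19008 genes that reached 1 TPM in 2 or more libraries were tested, and p-values were adjusted over them by Benjamini-Hochberg. Calls are at adjusted p below 0.05. A second fit divided each library by its summed TPM of the 13 mRNAs. Fold changes on this scale understate those of low genes. The code was tested on simulated data. Figures used matplotlib 3.10.9 in Python 3.11.15.

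The members, lists and tests were chosen with earlier results of these data known. The 24 lists hold 382 entries, of which 6 matched no gene, 17 matched by a synonym and 1 repeated another by an alias. Named genes are the 37 members, Rpl10a and Neurod6, the 2 called genes with the largest rise and fall of each list and comparison, and the 8 genes of nearest profile, of which 1 is not reported here. Sums over members got no test. Alternatives were leaving out each library, fitting only the groups compared, the replicate number as a block, moderation with no trend, quantile normalisation, median-of-ratios scaling, a total without mitochondrially encoded genes, filters of none and of a 5 TPM mean, and pseudocounts of 0.1 and 5 TPM. Sequences are not printed.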

Additional observations from a re-analysis of the deposited data

Results flagged for a closer look

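For all 15 mRNAs and rRNAs the change from one age to the next differed between the 2 weekly steps, by limma's test of the later step (P21 minus P14) minus the earlier (P14 minus P7). The values on the log2 scale were -1.91 for mt-Rnr1, -1.28 for mt-Rnr2, -1.45 for mt-Nd1, -1.50 for mt-Nd2, -0.91 for mt-Co1, -1.17 for mt-Co2, -1.50 for mt-Atp8, -1.67 for mt-Atp6, -0.74 for mt-Co3, -0.69 for mt-Nd3, -1.64 for mt-Nd4l, -1.47 for mt-Nd4, -1.68 for mt-Nd5, -1.87 for mt-Nd6 and -1.32 for mt-Cytb. Of all genes tested 16.8% passed in this direction. Groups of 2 or 3 libraries were too small for a test of single outlying libraries.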

How the results depend on the processing

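All 13 mRNAs and both rRNAs kept their direction and call for P7 IP against P7 input, P14 against P7 IP and P21 against P7 IP under all 21 alternatives. Between P21 and P14 IP the number of mRNAs called was less stable. It was 1 higher and 0 lower with no filter, 0 lower with only the groups compared, and 1 to 4 higher and 1 lower when single libraries were left out. mt-Co1 lost its call in 4 of 21 alternatives, mt-Co3 in 6 and mt-Nd6 in 2 (limma adjusted p = 0.0537 with no filter and 0.0549 with only the groups compared).

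Counts of tRNAs moved by single genes. In the TPM fit, 2 of the 6 tested were lower in P7 IP than in input, beside 51.1% of all genes. Higher were 1 at P14 against P7, 1 at P21 against P14 and 3 at P21 against P7. Of all genes 26.7%, 8.53% and 27.3% were called higher in these comparisons. The 3 include mt-Tv, whose call is not used. Lower in P7 IP than in input were 1 with a mean of at least 5 TPM, 1 after quantile normalisation and 1 to 4 with single libraries left out. Higher at P21 than at P14 were 0 with a pseudocount of 0.1 TPM, 0 with no filter and 0 to 2 with a library left out, at P21 against P7 1 with a mean of at least 5 TPM and 2 to 4, and at P14 against P7 1 to 2 with a library left out.

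Relative to their own sum, 2 mRNAs were higher in P7 IP than in input with a pseudocount of 5 TPM, 2 higher and 2 lower with a mean of at least 5 TPM, 0 and 0 with only the groups compared, and 0 to 2 in each direction with a library left out. Between P21 and P14, 1 was higher with a pseudocount of 5 TPM, 0 higher and 0 lower with no filter, 1 lower with a mean of at least 5 TPM, 1 and 1 without a trend, 0 higher and 1 lower with only the groups compared, and 0 to 2 in each direction with a library left out. At P14 against P7, 0 to 1 were higher with a library left out.

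Over all genes, P7 IP against input gave 6829 higher and 5555 lower with median-of-ratios scaling, 6256 higher and 6025 lower after quantile normalisation, and 5421 lower with a mean of at least 5 TPM, against 3541 and 9718. P21 against P14 gave 2691 higher and 2258 lower with median-of-ratios scaling, against 1621 and 3749.

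Reversals were limited to P21 minus P14 changes near 0 that were not called. With median-of-ratios scaling these were 0.11 for mt-Nd1, 0.086 for mt-Nd2, 0.034 for mt-Atp8, 0.015 for mt-Nd4l, 0.092 for mt-Cytb and 0.078 for mt-Tp. After quantile normalisation they were -0.043 for mt-Nd4 and 0.054 for mt-Tp, and with a pseudocount of 0.1 TPM 0.012 for mt-Tp. With a library left out the changes ranged from -0.097 to 0.088 for mt-Nd1, -0.11 to 0.064 for mt-Nd2, -0.19 to 0.095 for mt-Atp8, -0.23 to 0.045 for mt-Atp6, -0.21 to 0.048 for mt-Nd4l, -0.11 to 0.065 for mt-Cytb, -0.079 to 0.078 for mt-Nd4 and -0.27 to 0.44 for mt-Tp.

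With the replicate number as a block, mt-Tp was called higher at P14 and at P21 than at P7 (limma adjusted p = 0.0114 and 0.00948), which made 2 tRNAs higher at P14 than at P7. With the same block, 2 mRNAs were lower in P7 IP than in input relative to their own sum, and 1 was higher and 1 lower at P21 than at P14. Same-numbered IP libraries correlated in their deviations by 0.012 to 0.177, and 6 of 9 correlated best with their own number. IP libraries of different ages and numbers correlated by -0.123 to 0.102. The labels do not say whether the numbers pair libraries, so the block was kept as an alternative only. The cause of these shifts was not tested. The relative fit was not run with median-of-ratios scaling or with a total without mitochondrially encoded genes, both of which it cancels. It was also not run with quantile normalisation. The age comparisons share libraries, and the input mixes both Cre states.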
